A study of Mus musculus with 7 samples.

Results

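Macrophages in a healing nerve carry both the enzyme that makes superoxide and the enzymes that remove it, and the genes for both were examined here over time after injury. The 8 genes were taken by name from the 23361 genes in the deposited table. Cybb and Cyba encode the membrane subunits of the phagocyte NADPH oxidase, Ncf1, Ncf4 and Rac2 encode cytosolic partners, and Sod1, Sod2 and Cat encode enzymes that remove superoxide and hydrogen peroxide. All 8 passed the filter on low counts.

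The cells came from the inbred wild-type strain BALB/cJ, with no transgene. Mice of every group had isoflurane anaesthesia and meloxicam, an anti-inflammatory analgesic, around the operation. The sciatic nerve was transected and repaired with an empty conduit, and macrophages were sorted from the tissue bridging it as Lin-F4/80+CD14+CD11b+CD16/32+ cells. Libraries were made 5 days (n = 3), 14 days (n = 2) and 28 days (n = 2) after surgery. The groups were defined by time alone, and sort day, surgery date and library batch are not given in the sources used here, so a difference in any of these cannot be told apart from time. RNASeq is described with 3 mice per group, against the 2 libraries each of days 14 and 28 analysed here. The age of these mice and whether each library came from 1 mouse are not given in the sources used here. Uninjured nerve and blood monocytes were not analysed here, so every comparison is between days after injury.

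The phagocyte oxidase is silent until its parts meet. In a stimulated cell the cytosolic proteins p47phox (Ncf1) and p40phox (Ncf4) move with a Rac GTPase to the membrane, where gp91phox (Cybb) and p22phox (Cyba) form the flavocytochrome that passes electrons from NADPH to oxygen. Superoxide dismutases turn the superoxide into hydrogen peroxide, in the cytosol through Sod1 and in mitochondria through Sod2. Catalase, which sits mainly in peroxisomes, and the peroxiredoxins and glutathione peroxidases break the peroxide down. Macrophages and neutrophils use this system to kill microbes, and the same oxidants act as signals in injured tissue. Transcript levels do not report oxidase activity.

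Each library held 18027190 to 35247116 fragments assigned to genes, and 13209 to 14047 genes had more than 3 fragments. The 2 libraries of day 14 were unlike each other. Across 7613 genes, day 14 replicate 1 lay nearer to the day 5 mean (root mean square log2 difference 0.431) than to the day 28 mean (0.534), whereas day 14 replicate 2 lay nearer to day 28 (0.391) than to day 5 (0.558). For Ncf1, Sod2, Cat and some further genes, differences between days 5 and 14 are therefore also given without one or the other library. Macrophage markers were abundant in every library, with a summed FPKM of 3597 to 5946 over 8 genes, and markers of T and NK, B and Schwann cells summed to less than 1 FPKM. FPKM, fragments scaled by transcript length and library size, is the scale used for every level below.

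From day 5 to day 28, Ncf1 and Cat rose, Sod2 fell, and the other 5 genes did not pass the test. These were 3 of 8 genes at an adjusted p under 0.05 in edgeR's quasi-likelihood test for counts, referred to as called from here on, against 15.2% of all 12858 genes tested. By direction, 2 of 8 were higher against 7.74% of all genes, and 1 of 8 was lower against 7.51%. From day 5 to day 14, 0 of 8 genes were called by edgeR, against 4.78% of all genes (2.84% higher and 1.94% lower), and 2 (Sod2 and Cat) had an unadjusted p under 0.05, against 24% of all genes. DESeq2 called 2 in that comparison, and 1366 over all genes. Between days 14 and 28, 0 of 8 were called by edgeR or DESeq2. Over all genes, edgeR called only 0.0622% (0.0311% in each direction) and DESeq2 called 332 genes. In edgeR 1 of the 8 (Rac2) had an unadjusted p under 0.05, against 12.2% of all genes.

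**Figure D1:**
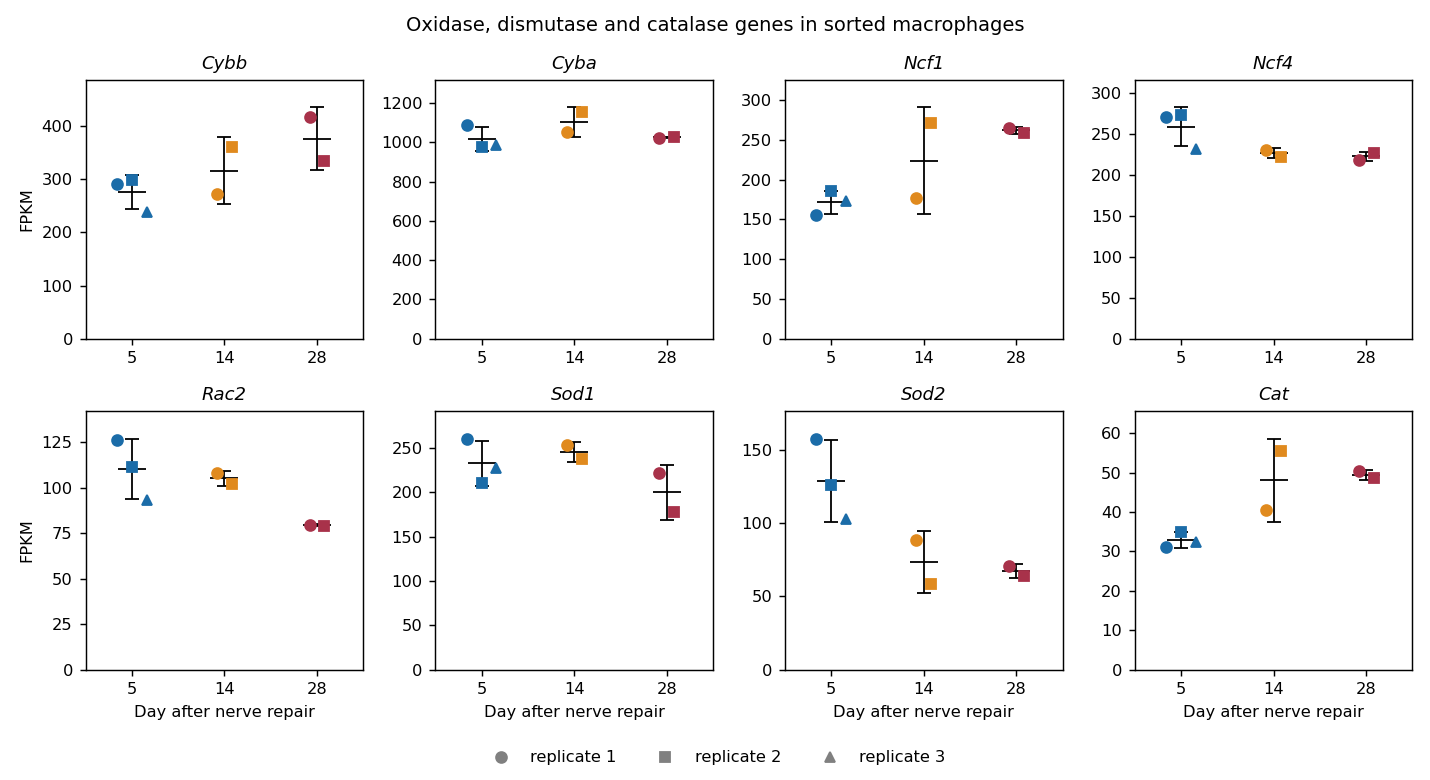
Level of each gene (FPKM, linear axis from 0) in each library against the day after repair. Points are libraries, horizontal bars are means and whiskers are SD (n = 3, 2 and 2). Sod2 fell from 103 to 158 FPKM at day 5 to 64.0 and 70.5 FPKM at day 28, whereas Cat and Ncf1 rose.

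Cyba had the highest level of the 8 genes in all 7 libraries, Cybb was second in all 7, and Cat was lowest in all 7. Averaged over the libraries, Cyba lay at percentile 99.6 of the genes detected, Cybb at 98.0, Ncf4 at 97.4, Sod1 at 97.2, Ncf1 at 97.0, Rac2 at 93.9, Sod2 at 93.7 and Cat at 85.8. The middle of the order changed with time. At day 5 the order of mean FPKM was Cyba, Cybb, Ncf4, Sod1, Ncf1, Sod2, Rac2 and Cat, and the libraries of neighbours overlapped between Cybb and Ncf4, Ncf4 and Sod1, Ncf1 and Sod2, and Sod2 and Rac2. At day 28 it was Cyba, Cybb, Ncf1, Ncf4, Sod1, Rac2, Sod2 and Cat, and only Ncf4 and Sod1 overlapped. Ncf1 thus stood above Ncf4 in both day 28 libraries and below it in all 3 day 5 libraries.

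Cybb encodes gp91phox, the catalytic chain that carries the electrons, and lies on chromosome X (9435252 to 9487771, minus strand, GRCm38). Its FPKM was 291, 298 and 239 in day 5 replicates 1 to 3, 272 and 361 at day 14, and 418 and 336 at day 28. Both day 28 libraries were above all 3 of day 5, while the day 14 libraries overlapped both other days. The day 28 to day 5 difference was 0.46 on the log2 scale (SE 0.17, 1.38-fold), and it missed the threshold (edgeR, adjusted p = 0.0972). This difference was called in only 4 of 16 alternative fits. It passed without the expression filter (adjusted p = 0.0401), in a fit of the 2 time points alone (0.0365), and in edgeR fits without day 14 replicate 1 (0.0291) or replicate 2 (0.0308).

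Cyba encodes p22phox, the partner that stabilises gp91phox and docks p47phox, and lies on chromosome 8 (122424776 to 122432930, minus strand). Its FPKM was 1088, 977 and 986 at day 5, 1051 and 1156 at day 14, and 1023 and 1028 at day 28. The day 28 libraries fell inside the day 5 range. With a log2 difference of 0.025 (95% confidence interval -0.24 to 0.29) between days 28 and 5, the interval reached to either side of 0, and Cyba was not called (edgeR, adjusted p = 0.905). The direction of this small difference turned without day 5 replicate 2 (log2 difference -0.0031).

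Ncf1 encodes p47phox, the organiser whose phosphorylation starts assembly, and lies on chromosome 5 (134220053 to 134229625, minus strand). Its FPKM was 156, 185 and 173 at day 5, 177 and 271 at day 14, and 265 and 259 at day 28. Day 14 replicate 1 sat within the day 5 range and replicate 2 above both day 28 libraries, which in turn were above all of day 5. Ncf1 rose 1.54-fold from day 5 to day 28, by 0.63 on the log2 scale (SE 0.18, edgeR, adjusted p = 0.0421). Means were 171 ± 14.8 FPKM (SD, n = 3) and 262 ± 4.57 (n = 2).

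Ncf4 encodes p40phox, which binds phosphatidylinositol 3-phosphate on phagosomes, and lies on chromosome 15 (78244801 to 78262580, plus strand). Its FPKM was 271, 274 and 231 at day 5, 231 and 222 at day 14, and 219 and 227 at day 28. Later libraries were all below those of day 5, but the gap to day 5 replicate 3 was under 1 FPKM for day 14 replicate 1. The log2 difference between days 28 and 5 was -0.20 (SE 0.12, edgeR, adjusted p = 0.278).

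Rac2, the Rac GTPase found mainly in blood cells, lies on the same chromosome as Ncf4 (78559167 to 78572783, minus strand), 297 kb from it. Its FPKM was 127, 112 and 93.3 at day 5, 108 and 102 at day 14, and 79.9 and 79.0 at day 28. Both day 28 libraries were below the other 5. A log2 difference of -0.46 between days 28 and 5 (SE 0.14) lay just beyond the threshold (edgeR, adjusted p = 0.0560), and that between days 28 and 14 was -0.40 (SE 0.15, adjusted p = 0.342). The former was called in 6 of 16 alternative fits, and with DESeq2 it passed (adjusted p = 0.0140). In edgeR it also passed without the filter (0.0305), with the 2 time points alone (0.0317), and without day 14 replicate 1 (0.0285), day 14 replicate 2 (0.0299) or day 5 replicate 3 (0.0457).

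The 3 remaining genes remove the oxidants. Sod1, the copper-zinc dismutase of the cytosol, lies on chromosome 16 (90220754 to 90226329, plus strand). Its FPKM was 261, 210.1 and 227 at day 5, 253 and 237 at day 14, and 222 and 178 at day 28. Days 28 and 5 overlapped, with a log2 difference of -0.20 (SE 0.14, edgeR, adjusted p = 0.343).

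Sod2, the manganese dismutase of mitochondria, lies on chromosome 17 (13006846 to 13040063, plus strand). Its FPKM was 158, 126 and 103 at day 5, 88.6 and 58.3 at day 14, and 70.5 and 64.0 at day 28. All 4 later libraries were below all 3 of day 5. Sod2 fell by 0.92 on the log2 scale from day 5 to day 28 (SE 0.22, edgeR, adjusted p = 0.0226), which put day 5 at 1.90-fold the later level. By day 14 the log2 difference was already -0.80 (SE 0.22), with an adjusted p of 0.0643 in edgeR and of 0.00325 in DESeq2. This day 14 difference was called in only 3 of 16 alternative fits.

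Cat, the catalase gene, lies on chromosome 2 (103453849 to 103485160, minus strand). Its FPKM was 31.1, 35.0 and 32.5 at day 5, 40.5 and 55.5 at day 14, and 50.3 and 48.6 at day 28. As for Sod2, but in the other direction, the 4 later libraries did not overlap day 5. Cat rose 1.52-fold to day 28, by 0.60 on the log2 scale (SE 0.14, edgeR, adjusted p = 0.0220). The day 14 difference was 0.56 (SE 0.14, adjusted p = 0.0557 in edgeR and 0.0134 in DESeq2), and it was called in only 3 of 16 alternative fits.

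**Figure D2:**
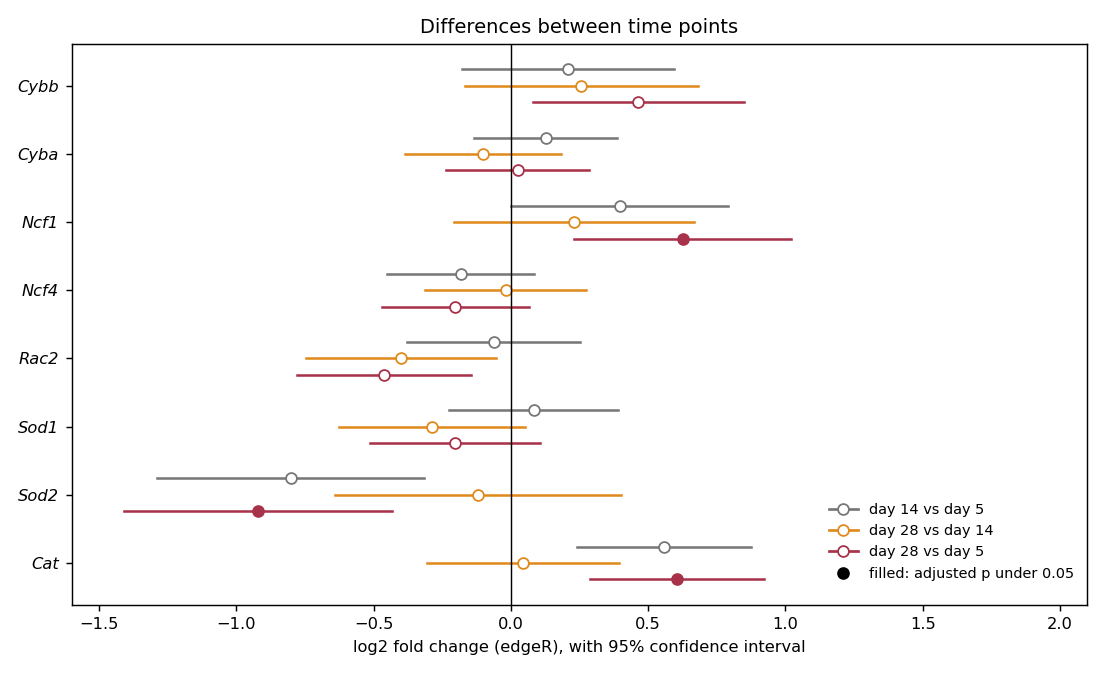
log2 fold changes from edgeR with 95% confidence intervals for the 8 genes in the 3 comparisons between days. Filled points passed an adjusted p of 0.05: Ncf1 (0.63), Sod2 (-0.92) and Cat (0.60), all between days 28 and 5. The comparisons share libraries and are not independent.

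The calls between days 28 and 5 rested on few libraries. Of 16 alternative fits, 11 called Sod2, 9 called Cat and 7 called Ncf1. Without any 1 of the libraries of day 5 or day 28, Ncf1 missed the threshold in edgeR, with an adjusted p of 0.136, 0.0862 and 0.105 without day 5 replicates 1, 2 and 3 and of 0.185 and 0.124 without day 28 replicates 1 and 2. Cat did so as well, at 0.0864, 0.0569, 0.0713, 0.131 and 0.0752 in the same order. Sod2 was kept without day 5 replicate 3 (adjusted p = 0.0258) and lost without day 5 replicate 1 (0.0732) or 2 (0.0623) and without day 28 replicate 1 (0.115) or 2 (0.114). Directions held in all of these fits, with log2 differences of 0.56 to 0.69 for Ncf1, -1.06 to -0.75 for Sod2 and 0.57 to 0.65 for Cat. limma on log2(FPKM + 1) called Sod2 and Cat but not Ncf1 (adjusted p = 0.0542), and without a filter on low values it called none of the 3 (0.0758 for Sod2, 0.0638 for Cat and 0.106 for Ncf1).

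Between days 5 and 14 the size of the differences depended on which day 14 library was kept. The 2 libraries were also unlike each other across all genes, so this is not particular to the genes named here. Without replicate 1, the edgeR log2 difference was 0.68 for Ncf1, -1.13 for Sod2 and 0.77 for Cat. Without replicate 2 the differences were 0.048 for Ncf1, -0.53 for Sod2 and 0.31 for Cat. In each of these fits 1 library stood alone for day 14 and was assumed to vary like the other groups.

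**Figure D3:**
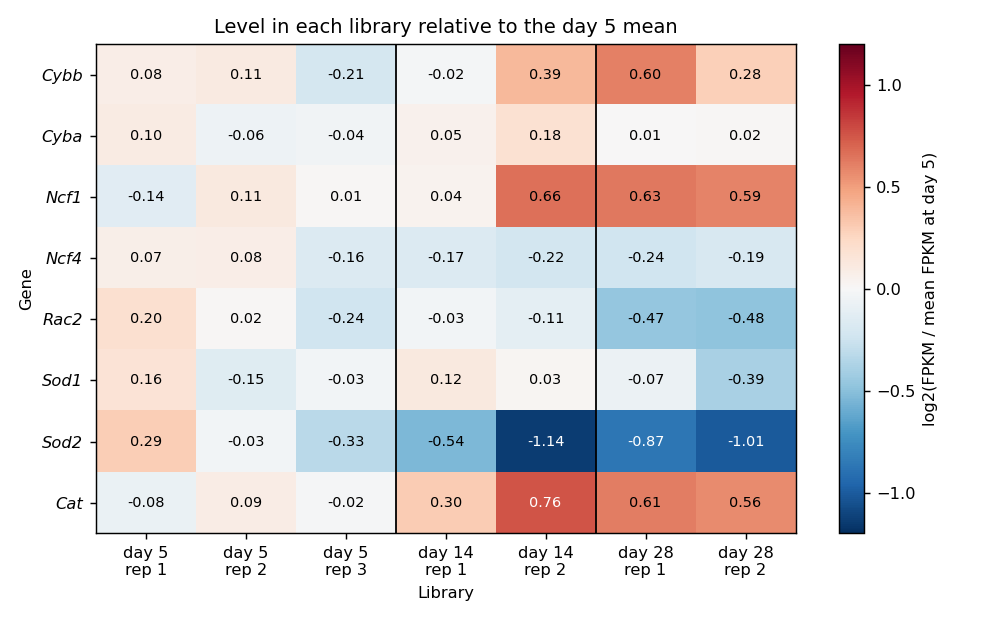
log2 ratio of the FPKM in each library (columns) to the mean FPKM of day 5 for the 8 genes (rows). Day 14 replicate 1 stayed near day 5 for Ncf1 (0.04) and Cybb (-0.02), and replicate 2 was near or beyond the day 28 libraries for Ncf1 (0.66), Sod2 (-1.14) and Cat (0.76).

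Genes whose libraries did not overlap between days were counted as well, a looser measure than the calls. From day 5 to day 14, 3 of 8 genes did not overlap (Cat higher, Ncf4 and Sod2 lower), against 43.2% of all genes (21.9% higher and 21.4% lower). From day 14 to day 28 there were 3 of 8, all lower (Cyba, Rac2 and Sod1), against 39% of all genes (19.3% higher and 19.7% lower). From day 5 to day 28 there were 6 of 8, against 51.5% of all genes (26% higher and 25.6% lower), with Cybb, Ncf1 and Cat higher and Ncf4, Rac2 and Sod2 lower. The median log2 difference of the 8 genes was 0.10, -0.060 and -0.089 in the 3 comparisons in this order, and that of all genes tested was 0.027, 0.0093 and 0.033.

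Fitted differences of the oxidase parts between days 28 and 5 had both signs, but most did not pass. Of the 5 subunit genes, 1 (Ncf1) was called higher, against 7.74% of all genes. The differences of the others ran from -0.46 (Rac2) to 0.46 (Cybb), and none of these was called. Ratios of FPKM within a library, which do not depend on the library's scaling, were compared for 3 pairs. The Sod2 to Sod1 ratio was 0.605, 0.599 and 0.451 at day 5, 0.350 and 0.246 at day 14, and 0.318 and 0.360 at day 28, so that every later library was below every day 5 library. The exact permutation test over all 210 assignments of the libraries to days gave p = 0.0571, or 0.171 after Benjamini-Hochberg adjustment over the 3 ratios, where the smallest p possible is 0.0095.

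The Cybb to Cyba ratio averaged 0.272 ± 0.0317 at day 5 (SD, n = 3), 0.286 ± 0.0378 at day 14 (n = 2) and 0.368 ± 0.0584 at day 28 (n = 2). Its exact permutation p was 0.162 (adjusted 0.2). For Rac2 to Rac1, the blood cell form against the form made by most cells, the ratio averaged 0.603 ± 0.0945, 0.639 ± 0.0265 and 0.475 ± 0.0676 on the same days. Its exact permutation p was 0.2 (adjusted 0.2). None of the 3 ratios passed, and the test is upper-tailed on the F statistic.

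For 6 of the 8 genes (all but Ncf4 and Rac2) a promoter window was at hand, 250 bases before and 50 after the RefSeq start on GRCm38.p6. That start can differ from the start of the gene span given above. The Sod2 and Cybb windows lie inside those spans, and distances below are to the RefSeq start. The 250 bases before the start are shown for the 3 genes called between days 28 and 5, since these moved in opposite directions. They are written 5′ to 3′ on the gene's strand, with motif matches in capitals: chr5:134229626-134229875 for Ncf1 (minus strand), chr17:13007589-13007838 for Sod2 (plus strand) and chr2:103485154-103485403 for Cat (minus strand).
Ncf1 promoter: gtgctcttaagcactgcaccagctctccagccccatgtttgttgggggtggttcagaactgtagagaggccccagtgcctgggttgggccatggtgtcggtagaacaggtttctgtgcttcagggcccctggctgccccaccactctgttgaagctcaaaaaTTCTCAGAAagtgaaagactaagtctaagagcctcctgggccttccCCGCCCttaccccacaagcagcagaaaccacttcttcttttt
Sod2 promoter: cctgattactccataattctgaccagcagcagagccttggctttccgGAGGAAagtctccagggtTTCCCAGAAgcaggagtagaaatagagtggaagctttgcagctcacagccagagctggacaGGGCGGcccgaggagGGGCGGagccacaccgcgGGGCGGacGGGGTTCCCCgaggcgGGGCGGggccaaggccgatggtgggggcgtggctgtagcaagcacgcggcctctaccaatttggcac
Cat promoter: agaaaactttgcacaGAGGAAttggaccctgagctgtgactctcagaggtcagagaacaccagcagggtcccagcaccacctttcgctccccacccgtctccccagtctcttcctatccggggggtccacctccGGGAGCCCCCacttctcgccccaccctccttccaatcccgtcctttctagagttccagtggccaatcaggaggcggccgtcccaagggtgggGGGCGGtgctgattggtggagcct

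The motifs searched on both strands were the PU.1 core GAGGAA, AP-1 TGANTCA, the antioxidant response element core TGACNNNGC, the STAT site TTCNNNGAA, the Sp1 box GGGCGG and the NF-kB consensus. Of 32851 promoter windows of the same length, 28.3%, 7.81%, 12.4%, 8.30%, 35.7% and 8.46% hold them, in that order. The Ncf1 window held a STAT match 88 bases before the start and an Sp1 box at 42. The Sod2 window held PU.1 at 203, STAT at 185, Sp1 at 124, 109, 91 and 67 and an NF-kB match at 83, and the Cat window PU.1 at 235, NF-kB at 116 and Sp1 at 24. Both NF-kB matches read on either strand at the same bases, and no other matches in these windows overlapped. Among the other genes, Cybb held AP-1 at 139 and, after its start, PU.1. Sod1 held an antioxidant response element core at 56 and 4 Sp1 boxes, and Cyba held 2 Sp1 boxes. These are matches of letters in short windows, and no binding was measured.

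The wider machinery was read from 3 lists of 47 further genes, of which 39 passed the filter on low counts. From day 5 to day 28, 10 of the 39 were called by edgeR, against the 15.2% of all genes, with 5 higher (7.74% of all genes) and 5 lower (7.51%). From day 5 to day 14 there were 3 of the 39, against 4.78% of all genes, with Hvcn1 higher (2.84% of all genes) and Vav3 and Glrx lower (1.94%). Between days 28 and 14 there were 0 by edgeR, against 0.0622% of all genes, with DESeq2 calling 1 (Srxn1) and 332 over all genes. The median log2 difference of the 39 genes between days 28 and 5 was 0.18, against 0.033 for all genes.

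Of 12 other subunit and assembly genes, 4 were tested and 0 were called by edgeR in any comparison, with 0 also at an unadjusted p under 0.05. Over all genes, 4.78% were called for day 14 against day 5, 0.0622% for day 28 against day 14 and 15.2% for day 28 against day 5. The shares at an unadjusted p under 0.05 were 24%, 12.2% and 31.5% in the same order. Rac1 ran from 151 to 187 FPKM over the 7 libraries, and Cybc1, a chaperone of the flavocytochrome listed as BC017643, from 19.8 to 29.5 FPKM. The other catalytic subunits were near absent at this depth. Nox1 and Nox3 had 0 fragments in all 7 libraries, Nox4 had at most 12 and Duox1 and Duox2 at most 4. Noxa1, which encodes an activator of Nox1, also had 0 fragments in all 7. Cybb was therefore the catalytic subunit with reads in quantity, at 22421 to 73626 fragments per library.

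**Figure D4:**
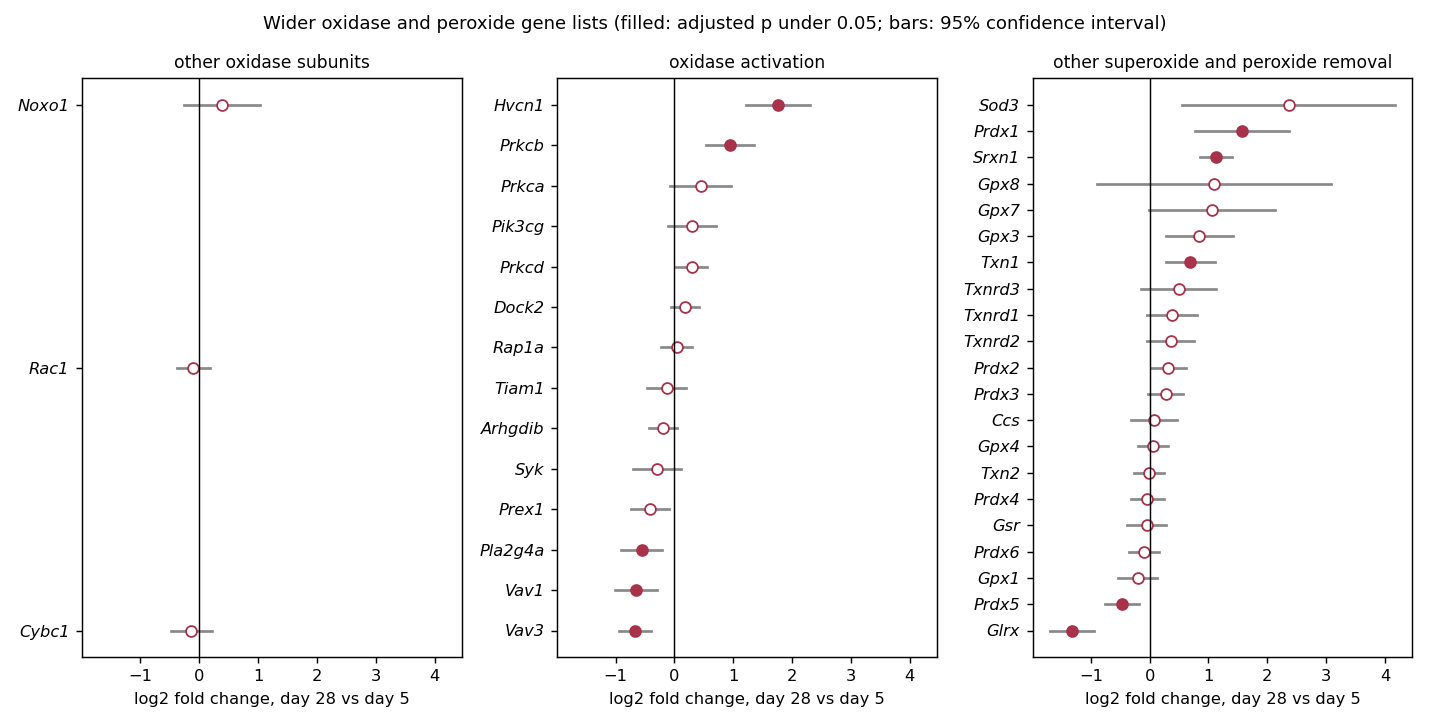
log2 fold change between days 28 and 5 (edgeR, with 95% confidence interval) for tested genes of the 3 wider lists, with 3 of other subunits, 14 of activation and 21 of other removal enzymes shown. Filled points passed an adjusted p of 0.05: Hvcn1 (1.76) is highest among them and Glrx (-1.32) lowest.

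Among 14 genes that activate or serve the oxidase, 2 rose and 3 fell from day 5 to day 28, against 7.74% and 7.51% of all genes. Hvcn1, the proton channel that balances the charge moved by the oxidase, had an FPKM of 36.6, 38.8 and 29.9 at day 5, 52.5 and 104 at day 14, and 126 and 112 at day 28. The 3 days did not overlap for Hvcn1, which rose 3.39-fold from day 5 to day 28 (log2 difference 1.76, SE 0.24, edgeR, adjusted p = 0.00296). This call held in all 16 alternative fits. Its rise by day 14 (log2 difference 1.16, SE 0.24, adjusted p = 0.0357) held in 5 of 16, and was 0.58 without day 14 replicate 2 (adjusted p = 0.0868) and 1.57 without day 14 replicate 1 (0.000132).

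Prkcb, a protein kinase C that phosphorylates p47phox, had an FPKM of 18.7, 17.8 and 17.1 at day 5, 17.1 and 27.6 at day 14, and 35.7 and 32.0 at day 28. It rose 1.92-fold to day 28 (log2 difference 0.94, SE 0.18, edgeR, adjusted p = 0.0108), a call that held in 13 of 16 alternatives. It was lost without day 28 replicate 1 (adjusted p = 0.0944), with the replicate block (0.0628) and with limma without a filter (0.0518). Vav1 and Vav3, exchange factors that load Rac with GTP, both fell. Vav3 was at 26.6, 27.7 and 25.4 FPKM at day 5, 18.4 and 15.8 at day 14, and 18.3 and 15.8 at day 28. The log2 difference between days 28 and 5 was -0.67 for Vav3 (SE 0.12, adjusted p = 0.00757 in edgeR, held in 16 of 16 alternatives) and -0.66 for Vav1 (SE 0.16, adjusted p = 0.0239, held in 10 of 16). By day 14 the log2 difference of Vav3 was -0.65 (adjusted p = 0.0226 in edgeR, held in 10 of 16). That call was kept without day 14 replicate 1 (0.00655) and lost without day 14 replicate 2 (0.0722) or any 1 library of day 5 (0.0777 to 0.0880).

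Pla2g4a, the cytosolic phospholipase A2 that frees arachidonic acid, fell from 16.4, 13.9 and 15.1 FPKM at day 5 to 11.4 and 8.90 at day 28 (log2 difference -0.56, SE 0.16, edgeR, adjusted p = 0.0428). This call held in 7 of 16 alternatives. Vav1 lost its call without day 5 replicates 1 or 2 (adjusted p = 0.0858 and 0.0756) or day 28 replicates 1 or 2 (0.148 and 0.0804), and Pla2g4a without any 1 library of day 5 or day 28 (0.0703 to 0.184).

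Among 21 other genes that remove superoxide and peroxide, 3 rose and 2 fell from day 5 to day 28, against the same shares of all genes. Srxn1, sulfiredoxin, which repairs over-oxidised peroxiredoxins, had an FPKM of 66.6, 61.0 and 64.7 at day 5, 67.6 and 79.6 at day 14, and 146 and 132 at day 28. Both day 28 libraries were far above the other 5. Srxn1 rose 2.19-fold from day 5 to day 28 (log2 difference 1.13, SE 0.12, edgeR, adjusted p = 0.00101), and the call held in 16 of 16 alternatives. From day 14 to day 28 its log2 difference was 0.92 (SE 0.13), with an adjusted p of 0.0514 in edgeR. Without day 14 replicate 1 it was 0.81 (adjusted p = 0.0559), and without day 14 replicate 2 it was 1.05 (0.00237).

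Prdx1, a cytosolic peroxiredoxin, had an FPKM of 344, 384 and 346 at day 5, 358 and 874 at day 14, and 1401 and 707 at day 28. The libraries within days 14 and 28 were far apart, and Prdx1 rose 2.97-fold to day 28 (log2 difference 1.57, SE 0.35, edgeR, adjusted p = 0.0197). Without day 28 replicate 1 the difference was 0.99 (adjusted p = 0.191), and the call was also lost without day 5 replicates 1, 2 or 3 (0.0733, 0.0586 and 0.0634). Txn1, thioredoxin, which reduces peroxiredoxins, followed the same libraries with 329, 305 and 301 FPKM at day 5, 323 and 429 at day 14, and 596 and 400.2 at day 28. Its log2 difference was 0.69 (SE 0.18, adjusted p = 0.0350 in edgeR, held in 8 of 16 alternatives), and 0.37 without day 28 replicate 1 (0.268). The Txn1 call was also lost without day 5 replicates 1, 2 or 3 (0.0869 to 0.106).

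Glrx, glutaredoxin, which takes glutathione off protein thiols, fell from 127, 119 and 120 FPKM at day 5 to 71.2 and 53.1 at day 14 and 55.7 and 41.0 at day 28. The fall to day 28 was the steepest among the called genes of these lists (log2 difference -1.32, SE 0.17, edgeR, adjusted p = 0.0021) and held in 16 of 16 alternatives. By day 14 the log2 difference was -0.97 (adjusted p = 0.0200, held in 11 of 16), with -1.18 without day 14 replicate 1 (0.00169) and -0.77 without day 14 replicate 2 (0.0470). That call was lost without any 1 library of day 5 (0.0657 to 0.0691). Prdx5, a peroxiredoxin of mitochondria and peroxisomes, had 687, 590 and 607 FPKM at day 5, 480 and 542 at day 14, and 475 and 421 at day 28 (log2 difference -0.47, SE 0.13, adjusted p = 0.0372 in edgeR). Without any 1 library of day 5 or day 28 the Prdx5 call was lost (0.0794 to 0.149).

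**Figure D5:**
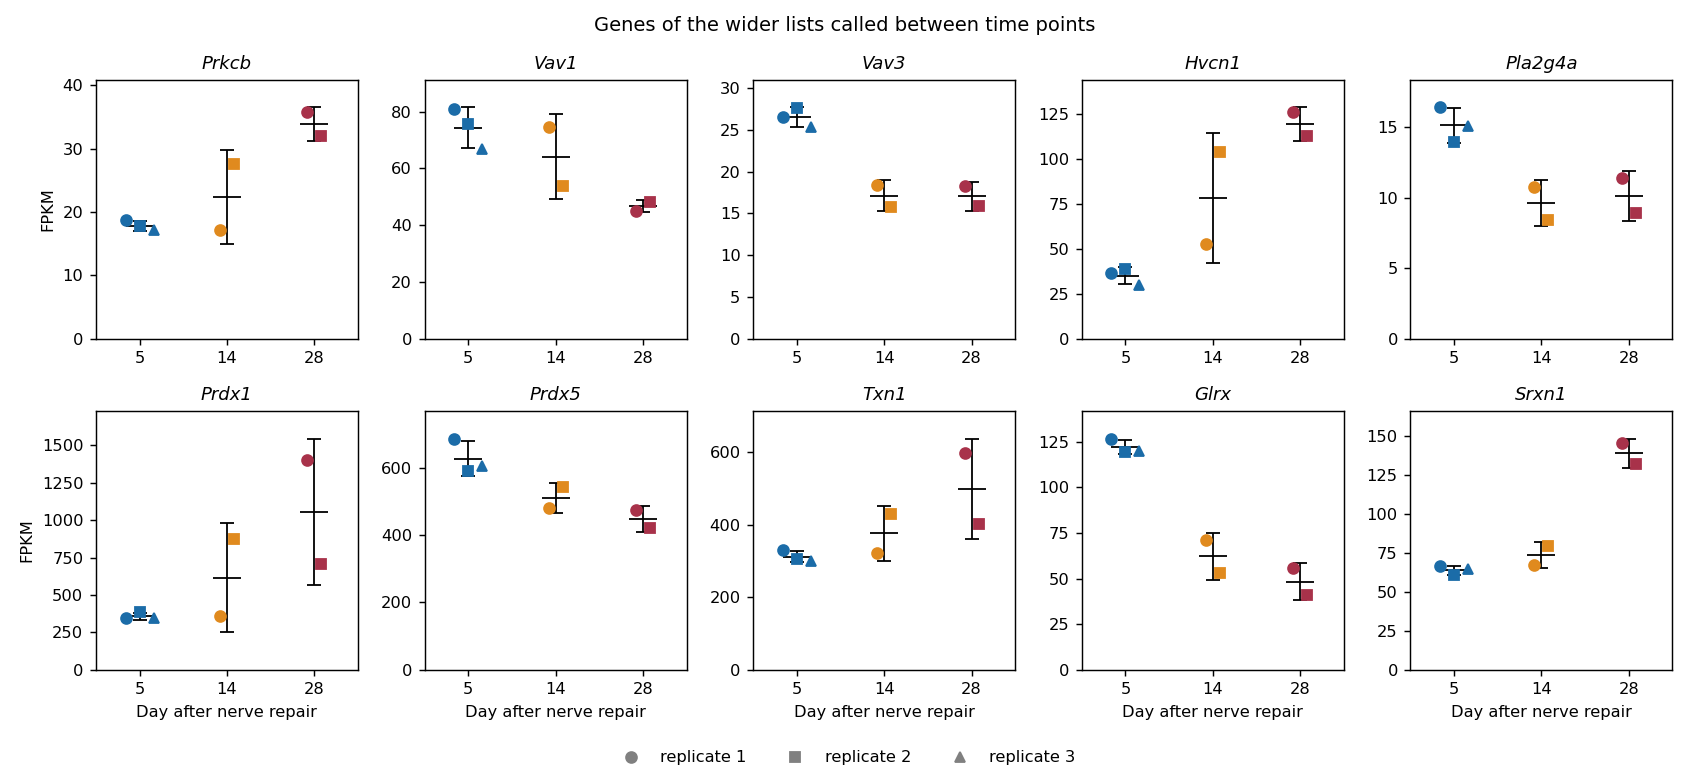
Level (FPKM, linear axis from 0) in each library for the 10 genes of the wider lists called in at least 1 comparison. Points are libraries, horizontal bars are means and whiskers are SD (n = 3, 2 and 2). Hvcn1 and Srxn1 were higher in both day 28 libraries than in all others, and Glrx was lower at days 14 and 28 than at day 5.

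The profiles of the 8 genes were set against those of 7612 genes with a mean of at least 5 FPKM, as Pearson's r of log2(FPKM + 1) over the 7 libraries, a description in which the libraries share their days. Ncf1 lay closest to Fn1 (fibronectin, r = 0.996), Sept9 and Car5b, and Cat to Mapk3 (r = 0.995), Gna15 and Pfkfb4. Sod2 lay closest to Rbbp8 (r = 0.993), Slc39a1 and Chic2, and Cybb to Slc35a1 (r = 0.992), Trmt10c and Esyt2. For the 4 others the nearest genes were Stim2 for Ncf4 (r = 0.988), Tspan31 for Sod1 (0.976), Siglece for Rac2 (0.967) and Tprgl for Cyba (0.963). Within the 8, Ncf1 and Cat ran together (r = 0.950), Sod2 ran against both (-0.904 with Ncf1 and -0.941 with Cat), and Cybb and its partner Cyba were only loosely related (0.342).

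Genes of other cell types in the sort were read beside these results, since neutrophils also carry the phagocyte oxidase. The neutrophil list summed to 338, 349 and 362 FPKM at day 5, 600.5 and 587 at day 14, and 294 and 154 at day 28, mostly from S100a8 and S100a9. Of its 12 genes, 11 were in the table and 7 were tested, Ly6g was not analysed here, and Elane had 0 fragments in every library. Mpo did not exceed 9 fragments in any library. By edgeR, Csf3r and Mmp8 were lower at day 28 than at day 5 (2 of 7, against 7.51% of all genes). At day 14 against day 5, Mmp8 was lower (1 of 7, against 1.94%) and 0 of 7 were called higher. S100a8, S100a9, Ltf and Cxcr2 were higher in both day 14 libraries than in all 3 of day 5 (4 of 7, against 21.9% of all genes) and missed the threshold. Its part in the levels of the subunit genes was not tested.

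Macrophage markers moved as well. Of 8 tested, Emr1 (F4/80), Cd14 and Fcgr1 were lower at day 28 than at day 5 by edgeR, against 7.51% of all genes, and 0 were called higher. Cd14 was also lower at day 14 than at day 5 (1 of 8, against 1.94%). Fcgr3 and Csf1r were higher in both day 14 libraries than in all 3 of day 5, as were 21.9% of all genes. Fcgr3 was also higher in both of day 28, as were 26% of all genes. Neither gene was called. The summed level went from 5430 to 5946 FPKM at day 5 to 3597 and 4035 FPKM at day 28. F4/80, CD14, CD11b (Itgam) and CD16/32 (of which Fcgr3 encodes CD16) were all used to sort the cells. The fibroblast list summed to 21.5 to 58.8 FPKM at day 5, 174 and 61.8 at day 14 and 25.0 and 42.6 at day 28. By edgeR, 0 of its 5 genes were called in any comparison. Over all genes, 4.78% (day 14 against day 5), 0.0622% (day 28 against day 14) and 15.2% (day 28 against day 5) were called. At an unadjusted p under 0.05 in edgeR, 5 of 5 were higher at day 14 than at day 5, against 24% of all genes in either direction. Between days 28 and 5, 0 of 5 differed, against 31.5% of all genes. Endothelial markers summed to 3.66 to 26.2 FPKM and erythroid markers to 3.86 to 59.7 FPKM over the libraries, and eosinophil and dendritic markers stayed under 10 FPKM. Among 4 endothelial genes tested, edgeR called Pecam1 and Kdr lower and Tek higher at day 28 than at day 5. In the same comparison Alas2 was lower (of 3 erythroid genes tested) and Siglec5 higher (of 2 eosinophil genes tested). Over all genes, 7.51% were lower and 7.74% higher. None of the 4 dendritic markers was called. In a sorted population, fewer cells of a type and less RNA per cell cannot be told apart. The part of these markers in the results was not tested.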

How the data were processed

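RNASeq was performed by the authors on polyA+ RNA of sorted macrophages, with 7 libraries described by the series as independent biological replicates. Single-end reads were trimmed with cutadapt 1.8, mapped to mm10 with TopHat2 2.0.13 and quantified with Cuffdiff 2.2.1. The authors deposited expected counts (fragments per gene before scaling), a scaled signal (fragments multiplied by 1 factor per library) and FPKM values. The treatment of reads mapping to several places and the use of strand are not given in the sources used here, so values of genes with near-identical copies are uncertain. Of all fragment values, 1.01% were not whole, and 8 values, none of a gene named among the 8, carried a failed status.

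After rounding, the expected counts were fitted in R 4.3.3 by edgeR 4.0.16, with all 7 libraries in 1 model, TMM scaling and the low-count filter set on time points. Contrasts were tested by quasi-likelihood F, and p-values were adjusted over 12858 genes by Benjamini-Hochberg. Standard errors were taken as the log2 fold change over the square root of F and are approximate. Ratios were tested by exact permutation in Python 3.11.15. Tests were tried on simulated fragments. Coordinates are GENCODE genes on GRCm38, and promoters are from RefSeq.

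The 8 genes, the wider lists and the markers were chosen with earlier results of these data known. Named beyond the 8 were the core subunits, the other catalytic subunits, every listed gene called in at least 1 comparison and the 3 genes most like each of the 8. Of the core subunits, 1 is not reported here and enters only the counts and medians of its list. Alternatives were DESeq2 1.42.0, RLE and Cuffdiff scaling, no filter, limma 3.58.1 on log2(FPKM + 1) and log2(FPKM + 0.1), fits of 2 time points, the replicate block, each library left out and an adjusted p under 0.01. Depth ran from 18027190 to 35247116 fragments, and a floor of 3 fragments covers counting error only.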

Additional observations from a re-analysis of the deposited data

How the results depend on the processing

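Of the log2 differences of the 8 genes, 7 of 384 changed direction, each by leaving out 1 library. For day 14 against day 5 these were Cybb (-0.014 without day 14 replicate 2, range -0.014 to 0.40 over the libraries left out) and Rac2 (0.046 without day 5 replicate 1, range -0.16 to 0.046). For day 28 against day 14, all without day 14 replicate 1, they were Ncf1 (-0.050, range to 0.58), Ncf4 (0.0028, range from -0.052), Sod2 (0.21, range from -0.39) and Cat (-0.17, range to 0.29). For day 28 against day 5 it was Cyba (-0.0031 without day 5 replicate 2, range to 0.076). In the wider lists, without day 14 replicate 2, Prkcb (-0.059, range to 0.64) and Vav1 (0.012, range from -0.45) turned for day 14 against day 5. For day 28 against day 14, Vav3 (0.075 without day 14 replicate 1, 0.074 without day 28 replicate 2, range from -0.14) and Pla2g4a (-0.070 without day 14 replicate 2, -0.11 without day 28 replicate 1, range to 0.27) turned as well.

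Among the 8 genes, 3 were called for day 28 against day 5, 5 without the filter, 5 with the 2 time points alone, 0 with limma without a filter, 0 at an adjusted p under 0.01 and 0 to 5 with 1 library left out. For day 14 against day 5 the numbers were 0, 2 with DESeq2, 2 without the filter and 0 to 3 with 1 library left out, and for day 28 against day 14 they were 0 throughout. Of the wider lists, 3 genes were called for day 14 against day 5, 5 with DESeq2, 6 without the filter, 0 with limma without a filter, 0 at an adjusted p under 0.01 and 0 to 7 with 1 library left out. For day 28 against day 14 they were 0, 1 with DESeq2, 1 without the filter and 0 to 5 with 1 library left out, and for day 28 against day 5 they were 10, 4 with limma without a filter, 4 at an adjusted p under 0.01 and 5 to 12 with 1 library left out.

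Over all genes, 614 were called for day 14 against day 5, 1366 with DESeq2, 1429 without the filter, 252 and 277 with limma at a pseudocount of 1 and 0.1, 0 with limma without a filter, 315 with the 2 time points alone, 24 at an adjusted p under 0.01 and 52 to 1728 with 1 library left out. For day 28 against day 14, 8 were called, 332 with DESeq2, 390 without the filter, 0 with limma in any form, 0 with the 2 time points alone, 0 at an adjusted p under 0.01 and 0 to 629 with 1 library left out. For day 28 against day 5, 1960 were called, 1042 with limma without a filter, 597 at an adjusted p under 0.01 and 452 to 2746 with 1 library left out. In that last comparison 2466 genes were called without the filter and 2778 with the 2 time points alone, so calls over all genes rose there too. The causes were not tested. With 1 library left out, the log2 ratio differences of day 28 minus day 5 ran from -0.83 to -0.60 for Sod2 to Sod1. They ran from 0.27 to 0.60 for Cybb to Cyba and from -0.48 to -0.19 for Rac2 to Rac1. Passing is not read from these fits. Without a day 5 library, groups of 2 leave too few distinct assignments for any permutation p under 0.05. Without a library of day 14 or day 28, 1 library stood alone for its day.

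Whether same-numbered libraries of different days shared more than a replicate number is not given in the sources used here. The deviations of same-numbered libraries correlated at -0.0538 to 0.175. Within day 14 and within day 28 the deviations mirror each other, so between these days the replicates gave the same value (-0.0538). With so few libraries, low correlations cannot show that no batch was shared. With the replicate block, 1 of the 8 genes (Sod2) was called for day 28 against day 5 and 0 in the other comparisons. The wider lists gave 0, 0 and 4 with the block for day 14 against day 5, day 28 against day 14 and day 28 against day 5, and all genes gave 6, 0 and 735. At the depth of these libraries, genes with fewer than a few fragments, such as the other catalytic subunits, could not be compared.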
